A study of Mus musculus with 2 samples.

Results

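The GALNT genes encode polypeptide N-acetylgalactosaminyltransferases, Golgi enzymes that attach the first sugar of mucin-type O-glycans, N-acetylgalactosamine, to serine or threonine residues of secreted and membrane proteins. Members differ in which peptides they modify and in the tissues that express them. Later enzymes extend this first sugar. In bone, GALNT3 is known for O-glycosylating FGF23, the phosphate-lowering hormone of osteocytes, next to the site where furin-type proteases cut it, which keeps the hormone intact. Loss of GALNT3 in humans causes high phosphate and calcification of soft tissue. Galnt1 and Galnt2 are the broadly expressed members in most tissues.

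The 10 members described here are Galnt1, Galnt2, Galnt3, Galnt4, Galnt6, Galnt7, Galnt10, Galnt11, Galnt15 and Galnt16, out of 19 family genes and 32285 genes measured. They were chosen by symbol, and Galnt15 was selected on its level in calcitriol-injected against untreated cells, the same contrast given below, so its difference is a description and carries no test. The data are unique molecular identifier (UMI) counts from 3′ single-cell RNA sequencing of femoral cells of male C57BL/6J mice 7 weeks old. One library came from 6 untreated mice and the other from 6 mice given intravenous calcitriol, the active form of vitamin D, at 2.5 µg/kg on each of 3 days and killed 24 h after the last dose. Each library pooled its mice, so there was 1 sample per group and no replicate, and neither a p-value nor a spread between animals can be given. The untreated mice are not described as having received a vehicle, and injection and calcitriol cannot be told apart. Epiphyses were cut off, marrow was spun out, and CD45-positive blood cells were depleted before encapsulation, so the cells are those left after these steps.

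The untreated library held 6076 barcodes with 70266983 UMIs and the calcitriol library 4562 barcodes with 60392557 UMIs. After filtering, 4436 and 3693 cells remained with median depths of 10989.5 and 12258 UMIs, and 8 barcodes occurred in both libraries. Clusters were named by markers, and 9 classes had at least 20 cells in each library: osteocyte-like (96 untreated and 216 calcitriol cells), osteoblast-like (350 and 332), chondrocyte-like (445 and 1054), synovial lining-like (25 and 94), fibroblast-like (436 and 664), tendon-like (376 and 484), endothelial-like (257 and 305), smooth muscle-like (55 and 81) and erythroid-like (2307 and 434). The osteocyte-like cluster had 6 of its class's markers, Mepe, Dmp1 and Phex first, among its 10 leading genes, while a chondrocyte-like cluster led by Chil1, a tendon-like cluster led by Igfbp2 and 4 erythroid-like clusters, which held most cells of that class, had none there and were named from markers further down. Clusters with neutrophil, skeletal muscle and Schwann cell markers, 118 cells in all, were too small to compare. Haemoglobin UMIs took 41.2% of the untreated and 10.6% of the calcitriol library. Within the non-erythroid classes they took 0.0987% to 3.74% of UMIs, and they were the higher in the untreated library in every class but the synovial lining-like cells. The part of that difference in the values below was not tested. The level of a gene is given as CPM, its UMIs per 1000000 UMIs of all cells of a class in a library. A 3′ library reads 1 tag per molecule, so CPM was compared between genes without scaling by length. Brackets hold 95% intervals that cover counting error only.

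Every member was detected in both libraries. Galnt1 or Galnt2 led the family in each class of the untreated library. Galnt1 made up 32.3% of the 10 members' UMIs in osteocyte-like, 38.6% in osteoblast-like, 43.4% in chondrocyte-like, 37.9% in tendon-like and 48.4% in endothelial-like cells. Galnt2 led in synovial lining-like cells with 45.6%, in smooth muscle-like cells with 31.2% and in fibroblast-like cells with 31.0%. In the calcitriol library the leader was the same in the osteocyte-, osteoblast-, chondrocyte-, synovial lining-, endothelial- and erythroid-like classes. In its chondrocyte- and endothelial-like classes Galnt15 was next to Galnt1, and the intervals of their shares overlapped. Their clusters differed in the leader. Galnt15 was ahead of Galnt1 in the Msmp-led cluster, with 1407 against 1222 UMIs, and in the Chil1-led cluster, with 512 against 409. It was also ahead in the Flt1-led cluster, with 308 against 176. Galnt1 was ahead in the Fxyd2-, Selp- and Ccl21a-led clusters. Galnt15 led in fibroblast-like cells with 63.3% [62.1, 64.6], in tendon-like cells with 49.4% [47.5, 51.2] and in smooth muscle-like cells with 26.4% [21.4, 32.0]. In the smooth muscle-like class the interval of the next member, Galnt2 at 23.2%, was not separated from it. The tendon-like lead came from the cluster led by Angptl7 and Kera, with 1109 Galnt15 and 289 Galnt1 UMIs. Galnt1 was ahead in the cluster led by Igfbp2 and Sfrp2, with 306 against 284 UMIs. It was also ahead in that led by Chodl and Mstn, with 77 against 58, and the intervals overlapped in both.

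**Figure D1:**
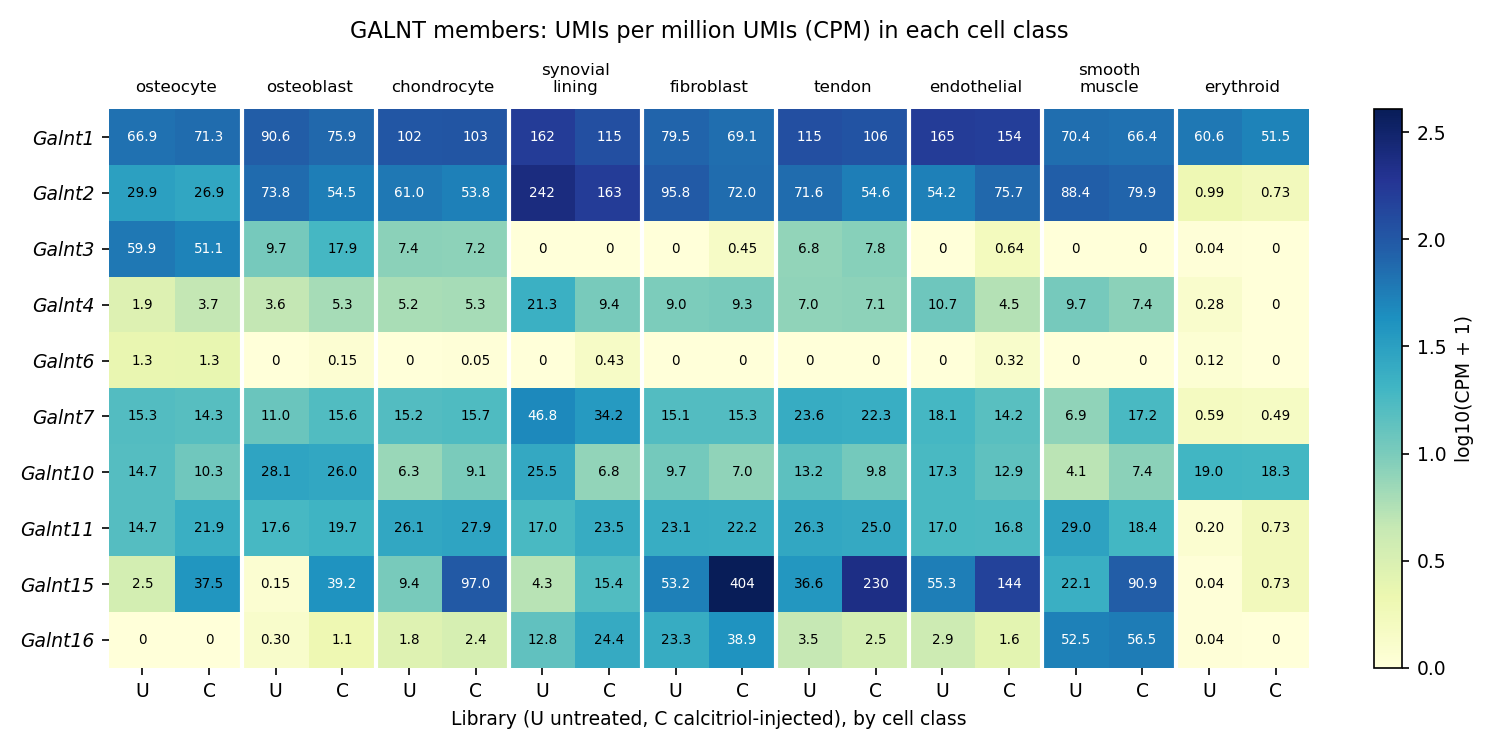
CPM of the 10 members (rows) in each cell class and library (columns, U untreated and C calcitriol-injected); the colour is log10(CPM + 1) and each cell prints the CPM. Galnt15 reaches 404 CPM in calcitriol fibroblast-like cells from 53.2 CPM in untreated ones, Galnt3 is highest in osteocyte-like cells, and erythroid-like cells hold mainly Galnt1 and Galnt10.

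Outside these leaders the classes differed in their minor members. Galnt16 was read mainly in smooth muscle-like cells, at 52.5 CPM untreated and 56.5 CPM with calcitriol, in fibroblast-like cells, at 23.3 and 38.9 CPM, and in synovial lining-like cells, at 12.8 and 24.4 CPM. It had no UMI in osteocyte-like cells of either library, which allows up to 1.91 CPM untreated and 0.996 CPM with calcitriol. Galnt10 was at 28.1 and 26.0 CPM in osteoblast-like cells. Galnt7, which prefers peptides that already carry a sugar, was highest in synovial lining-like cells at 46.8 and 34.2 CPM and ran from 6.90 to 23.6 CPM in the other non-erythroid classes. Galnt11, known for glycosylating the Notch1 receptor, ran from 14.7 to 29.0 CPM over all non-erythroid classes and libraries. Galnt4 stayed between 1.91 and 21.3 CPM there. Galnt6 was near absent, with 0 to 4 UMIs in any class of either library. These levels are sums over a class, and more cells with the gene and more RNA per cell are not separated in them.

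Erythroid-like cells used the narrowest set. Galnt1 stood at 60.6 CPM untreated and 51.5 CPM with calcitriol, and Galnt10 at 19.0 and 18.3 CPM. Galnt1 held 74.0% of the members' UMIs in the untreated and 71.0% in the calcitriol library, and Galnt10 held 23.2% and 25.3%. Each of the other 8 members was below 1 CPM in both libraries. The summed level of the 9 members other than Galnt15 had a log2 ratio of -0.19 [-0.37, -0.01] here, and it turned to 0.29 when haemoglobin and mitochondrial UMIs were left out of the totals. The median of all genes in this class was itself at -0.83.

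**Figure D2:**
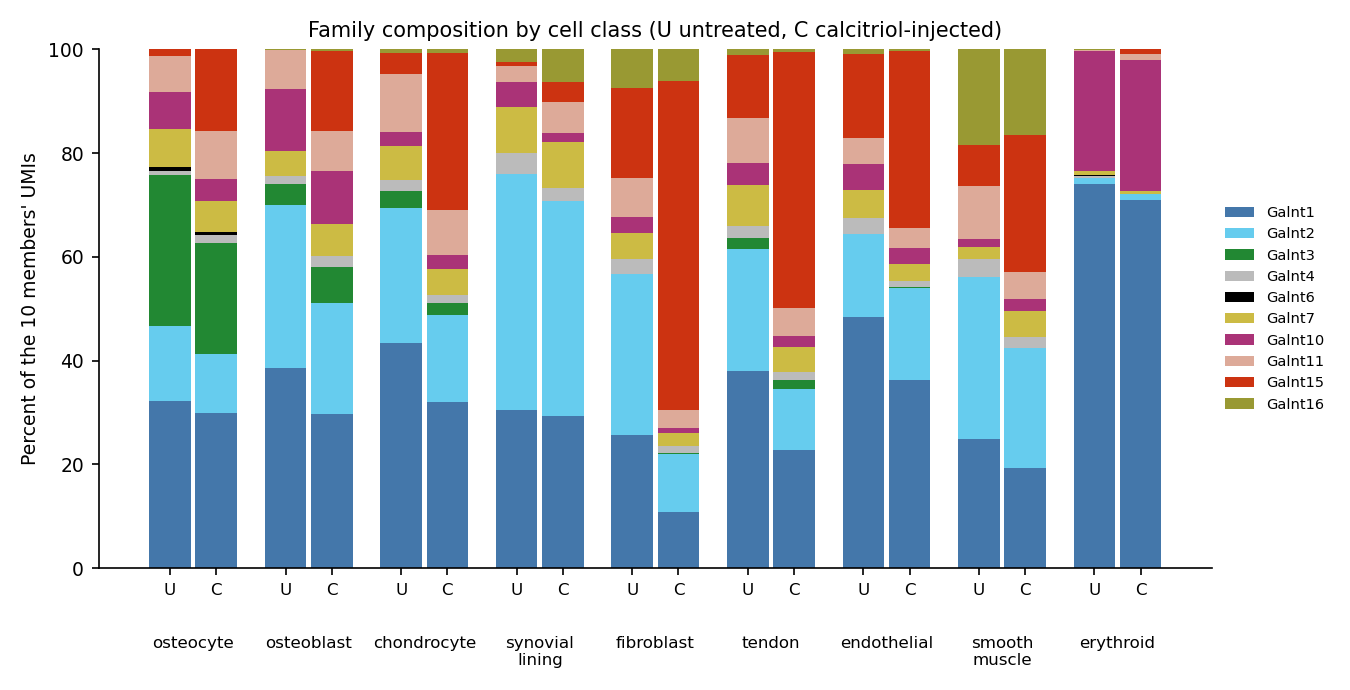
Percent of the 10 members' UMIs taken by each member (stacked bars), by cell class and library (U untreated, C calcitriol-injected). The Galnt15 share goes from 17.2% to 63.3% in fibroblast-like cells, from 4.01% to 30.1% in chondrocyte-like cells and from 0.0644% to 15.4% in osteoblast-like cells.

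Galnt15 (ENSMUSG00000021903) lies on the plus strand of chromosome 14, from 32028989 to 32062197 in GRCm38, with no exon shared with another gene. It had the largest ratio of any tested member in each of the 8 non-erythroid classes. It was highest in fibroblast-like cells, with 285 UMIs and 53.2 CPM untreated against 3573 UMIs and 404.5 CPM with calcitriol, a log2 ratio of 2.93 [2.75, 3.11]. Of these cells, 36.2% carried a Galnt15 UMI untreated and 84.9% with calcitriol, and no single cell held more than 43 of the UMIs. With cells thinned to 2000 UMIs the shares were 8.76% and 50%. Here and below, thinning left out the cells with fewer than 2000 UMIs.

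The vitamin D receptor binds paired copies of a 6-base half-site, and the match at Galnt15 is shown here because Galnt15 is the member that differed most. The 250 bases before each RefSeq start (GRCm38.p6) were searched on both strands for AGGTCA and for its variants, which were AGTTCA in one form, GGGTCA in another form and GGTTCA in the last. Starts of 7 members were read, those of Galnt3, Galnt6, Galnt7, Galnt10, Galnt11, Galnt15 and Galnt16. Matches were found in 7 of their 11 windows: the 1 of Galnt15, 1 of 2 of Galnt6, both of Galnt11 and all 3 of Galnt16. The Galnt16 windows at 80518552-80518801 and 80518740-80518989 of chromosome 12 overlap. Their matches are the same bases, counted in each, so the windows are not independent. The windows of Galnt3, Galnt7 and Galnt10 had none. A match occurred in 38.6% of the 32851 windows of the table, and a direct repeat of 2 half-sites 3 bases apart in 0.0396%, with none in the members. The Galnt15 match lies within an exon of the GENCODE model, at chr14:32029028-32029057 on the plus strand, with the half-site (AGGTCA on the other strand) in capitals.
Galnt15: catctgttgctcTGACCTgactcaaggcat
A match of letters describes the sequence and is not a bound site.

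Tendon-like cells read 36.6 CPM untreated and 229.8 CPM with calcitriol, with a log2 ratio of 2.65 [2.42, 2.88]. The 3 tendon-like clusters differed widely in level. The cluster led by Angptl7 and Kera, keratocan of tendon and cornea matrix, was at 69.8 and 398.1 CPM, the one led by Igfbp2 and Sfrp2 at 15.2 and 140.7 CPM, and the one led by Chodl and Mstn (myostatin) at 1.83 and 38.4 CPM. Calcitriol was the higher library in each of the 3.

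Chondrocyte-like cells had 92 Galnt15 UMIs and 9.37 CPM untreated, and 2039 UMIs and 97.0 CPM with calcitriol, a log2 ratio of 3.37 [3.07, 3.69]. The level followed the chondrocyte cluster. Cells led by Msmp and Cytl1, which also express Wif1, went from 16.7 to 141.3 CPM, and cells led by Chil1 and the Wnt inhibitor Notum from 14.7 to 147.7 CPM. Cells led by Fxyd2 and Matn3, a cartilage matrix protein of the growth plate, were lower in both libraries, at 2.29 and 15.8 CPM. The log2 ratios in these 3 clusters were 3.08, 3.33 and 2.78, each below that of the class. The Fxyd2-led cluster held 140 of 445 untreated and 236 of 1054 calcitriol cells. The class ratio therefore also carries the mix of clusters, and the size of that part was not tested. At a finer clustering, cells led by Col10a1, the collagen of hypertrophic cartilage, were at 2.75 and 15.8 CPM.

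In the osteoblast lineage Galnt15 was close to absent without calcitriol. Osteoblast-like cells held 1 UMI among 350 untreated cells (0.151 CPM) and 261 UMIs in 82 of 332 calcitriol cells (39.2 CPM). The log2 ratio was 8.02 with an interval of 5.53 to 13.3, and it rests on a single untreated UMI. The ratio was at least 3.41 in cells thinned to 2000 UMIs. Without integration it was 4.23, but the class then held 477 untreated and 461 calcitriol cells. The tendon-like class then held 254 and 328 cells instead of 376 and 484. The part of this change of cells in the 4.23 was not tested. The Postn-led cluster, named for periostin of the periosteum, had 1 and 154 UMIs. The cluster led by Bglap, the osteocalcin gene, had 0 and 107 UMIs, which makes the calcitriol level at least 5.09 higher on the log2 scale, taking 3 UMIs as the most a count of 0 allows in that library. Both clusters carried it with calcitriol.

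Osteocyte-like cells had 4 Galnt15 UMIs untreated and 113 with calcitriol, at 2.55 and 37.5 CPM, with a log2 ratio of 3.88 [2.48, 5.78]. Within this cluster the UMIs lay mostly in cells poor in osteocyte genes. No UMI of Dmp1, Mepe or Phex was found in 29 untreated and 92 calcitriol cells of the class. Of these 92 cells 31.5% carried Galnt15 at 52.7 CPM, while of the 79 calcitriol cells with 2 or 3 of these genes 8.86% carried it at 12.4 CPM. In the untreated library the corresponding 34 cells with 2 or 3 genes had no Galnt15 UMI, which allows up to 5.16 CPM, so the ratio in them was at least 1.26 on the log2 scale. At a clustering resolution of 1.2 the osteocyte-like cluster shrank to 24 and 68 cells with 0 and 10 UMIs, and the difference was not detectable at that depth. At that resolution a cluster led by Tnfrsf11b and Ibsp, named osteoblast-like, held 4 Galnt15 UMIs in 71 untreated and 100 in 151 calcitriol cells, at 3.51 and 43.6 CPM.

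Endothelial-like cells already expressed Galnt15 untreated, at 55.3 CPM, the highest untreated level of any class and close to that of fibroblast-like cells, from which it was not separated beyond counting error. With calcitriol they reached 144.4 CPM, a log2 ratio of 1.38 [1.11, 1.66]. The cluster led by Flt1 and Fabp4, genes of capillary endothelium, was at 77.2 and 221.3 CPM, the cluster led by Ccl21a and Lyve1, lymphatic endothelial genes, at 21.2 and 65.1 CPM, and the cluster led by Selp and Plvap at 61.2 and 98.0 CPM. Smooth muscle-like cells read 22.1 and 90.9 CPM, a log2 ratio of 2.04 [1.25, 2.92]. That value rests on 16 untreated UMIs, and under the other clusterings, which held 40 to 45 instead of 55 untreated cells, it lay between 3.36 and 3.59. Synovial lining-like cells had 2 UMIs in 25 untreated cells and 36 in 94 calcitriol cells, at 4.25 and 15.4 CPM, and the interval of the log2 ratio of 1.86, from -0.10 to 4.96, included 0.

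Erythroid-like cells had the lowest Galnt15 level of the classes in both libraries, and the part of free RNA in any class was not tested. They held 1 Galnt15 UMI among 2307 untreated cells and 3 among 434 calcitriol cells, or 0.0395 and 0.732 CPM. The share of cells with a UMI was 0.691% in the latter at a median depth of 9865 UMIs. It was 21.3% in osteocyte-like cells at 11550 and 24.7% in osteoblast-like cells at 16657.5. Haemoglobin took 76.6%, 0.761% and 0.264% of the calcitriol UMIs of these 3 classes, so the depths are not alike for other genes. Calcitriol barcodes with under 200 genes, which entered no class, were at 2.74 CPM. Of these 1.25% carried a UMI, at a median depth of 5149.5 UMIs. Untreated, the order ran from endothelial- and fibroblast- to tendon-, smooth muscle-, chondrocyte-, synovial lining-, osteocyte-, osteoblast- and erythroid-like cells. Among these neighbours only fibroblast- and tendon-like, and smooth muscle- and chondrocyte-like cells had separate intervals, as clustered here. The untreated smooth muscle-like level rests on 16 UMIs in 55 cells, against 40 to 45 cells under the other clusterings. Its log2 ratio was higher there, and its place in this order under them was not tested. In order of calcitriol level the classes ran from fibroblast-, tendon-, endothelial-, chondrocyte- and smooth muscle- to osteoblast-, osteocyte-, synovial lining- and erythroid-like cells. The neighbours chondrocyte- and smooth muscle-like, and osteoblast- and osteocyte-like, had overlapping Poisson intervals.

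**Figure D3:**
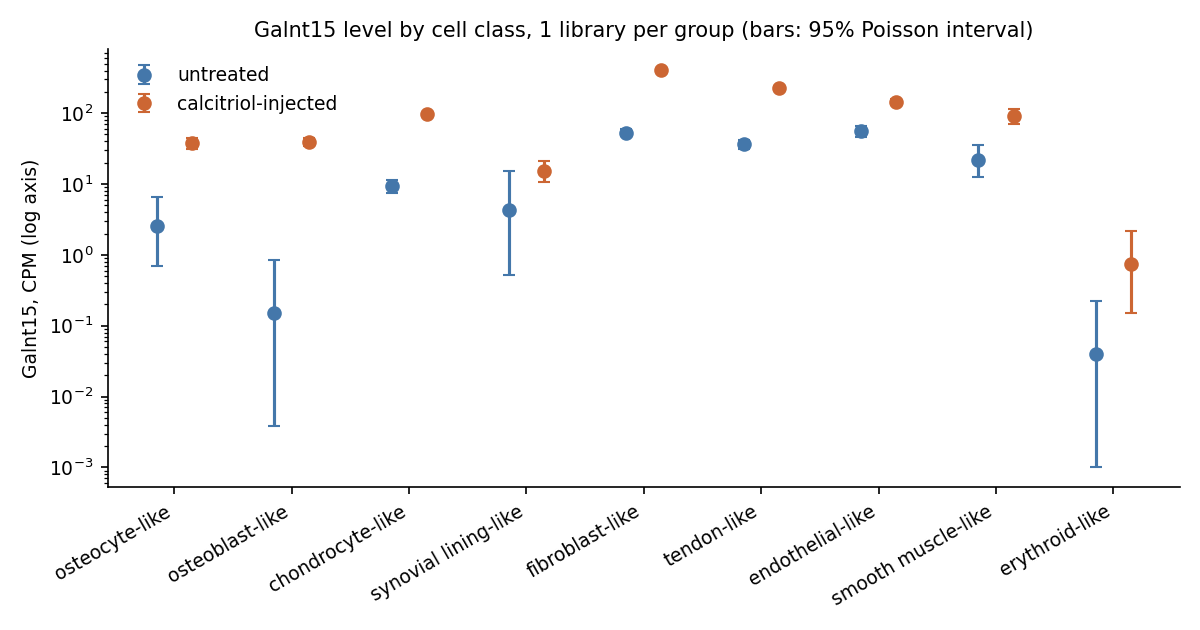
Galnt15 CPM on a log axis by cell class; points are the single untreated and calcitriol-injected libraries and bars are 95% Poisson intervals. The calcitriol point lies above the untreated one in every class, and the intervals overlap in synovial lining-like and erythroid-like cells.

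Galnt15 was read against all genes with at least 20 UMIs in a class. At least 2-fold higher with calcitriol were 7.34% of genes in osteocyte-like, 5.02% in osteoblast-like, 5.11% in chondrocyte-like, 5.99% in synovial lining-like, 4.51% in fibroblast-like, 4.64% in tendon-like, 3.32% in endothelial-like and 6.33% in smooth muscle-like cells. At least 2-fold lower were 4.48%, 3.55%, 5.51%, 10.1%, 4.16%, 5.42%, 4.29% and 5.58% in the same order. Galnt15 ranked 1 of 11660 genes in osteoblast-like cells, where the rank rests on 1 untreated UMI. It ranked 20 of 9034 in osteocyte-like, 37 of 13378 in chondrocyte-like and 37 of 11806 in fibroblast-like cells. It ranked 41 of 11516 in tendon-like, 49 of 7120 in smooth muscle-like, 143 of 7986 in synovial lining-like and 173 of 10581 in endothelial-like cells. The osteocyte-like rank is that of the whole cluster, in which 29 untreated and 92 calcitriol cells had no Dmp1, Mepe or Phex UMI. At resolution 1.2 the Galnt15 difference was not detectable in that class. Genes with 0 untreated UMIs were scored as if they had 3, while the 1 UMI of Galnt15 was kept. Rank 1 in osteoblast-like cells therefore does not show that Galnt15 had the largest ratio there. Since Galnt15 was chosen for this contrast, these ranks are a description.

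Among the 10 members with at least 20 UMIs over both libraries, as processed here, Galnt15 was the only one at least 2-fold higher in any of the 8 classes. Few members were compared in each class, so a count of 0 among the others lies near the share of all genes given above and says nothing particular of them. Some of the others passed 2-fold under an alternative. In cells thinned to 2000 UMIs these were Galnt7 in osteoblast-like cells, 1.67 from 3 and 9 UMIs, Galnt11 in endothelial-like cells, 1.96 from 2 and 9 UMIs, Galnt11 in smooth muscle-like cells, 1.65 from 1 and 4 UMIs, and Galnt3 in chondrocyte-like cells, 1.21 from 4 and 22 UMIs. Galnt3 in osteoblast-like cells was at 1.29 and Galnt11 in osteocyte-like cells at 1.01 as the mean of the cells' own CPM. Galnt11 in osteocyte-like cells was at 1.05 at resolution 1.2, and Galnt16 in synovial lining-like cells was at 1.02 without the cell that held most of its UMIs. Members that reached the limit of 20 UMIs numbered 7, 8, 9, 8, 8, 9, 7 and 5 in the order of classes above, and Galnt6 reached it in none. Below the limit, Galnt7 in smooth muscle-like cells had 5 and 14 UMIs. Of the other members tested, none was 2-fold higher among 6 in osteocyte-like, 7 in osteoblast-like, 8 in chondrocyte-like, 7 in synovial lining-like, 7 in fibroblast-like, 8 in tendon-like, 6 in endothelial-like and 4 in smooth muscle-like cells. Their median log2 ratio was -0.13 in osteocyte-like cells, against 0.06 over all genes, and 0.16 in osteoblast-like cells, against -0.08. It was 0.05 in chondrocyte-like cells, against -0.06, and -0.06 in fibroblast-like cells, against -0.08. At least 2-fold lower, as processed here, were Galnt4 and Galnt10 in synovial lining-like cells and Galnt4 in endothelial-like cells. Others were 2-fold lower only under an alternative. Their lowest values were -1.93 for Galnt1 in smooth muscle-like, -1.91 for Galnt4 in osteoblast-like and -1.57 for Galnt16 in tendon-like cells. Galnt7 reached -1.15 in osteocyte-like and -2.23 in synovial lining-like cells. Galnt10 reached -1.12 in osteocyte-like, -1.14 in tendon-like and -1.53 in endothelial-like cells. In synovial lining-like cells Galnt4 had 10 and 22 UMIs and a log2 ratio of -1.18 [-2.31, 0.07], an interval that included 0. Of all genes, 10.1% in synovial lining-like and 4.29% in endothelial-like cells were at least 2-fold lower.

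Summing the 9 members other than Galnt15 gave 204.5 CPM untreated and 200.8 CPM with calcitriol in osteocyte-like cells, a log2 ratio of -0.03 [-0.22, 0.17]. In chondrocyte-like cells the sums were 224.5 and 224.8 CPM, a log2 ratio of 0.00 [-0.07, 0.08]. Osteoblast-like cells were at 234.9 and 216.0 CPM, fibroblast-like cells at 255.5 and 234.2 CPM, and tendon-like cells at 267.3 and 235.7 CPM, with log2 ratios of -0.12, -0.13 and -0.18, of which the fibroblast-like one turned to 0.022 in cells thinned to 2000 UMIs. Synovial lining-like cells had the lowest ratio, -0.49 [-0.69, -0.28], in a class whose median over all genes was -0.29. With Galnt15 included, the 10 members summed to 308.7 CPM untreated and 638.7 CPM with calcitriol in fibroblast-like cells, a log2 ratio of 1.05 [0.97, 1.13].

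Of the 2 broad members, Galnt2 (chromosome 8) had intervals below 0 in osteoblast-, chondrocyte-, synovial lining-, fibroblast- and tendon-like cells. Its log2 ratio was -0.44 [-0.64, -0.24] in osteoblast-like cells, from 73.8 to 54.5 CPM, and -0.41 [-0.58, -0.24] in fibroblast-like cells, from 95.8 to 72.0 CPM. In endothelial-like cells it was 0.48 [0.18, 0.79], from 54.2 to 75.7 CPM. Galnt1 differed less, with log2 ratios from -0.50 to 0.09 over the 8 classes and 103.2 CPM with calcitriol against 101.5 CPM untreated in chondrocyte-like cells. Its interval was also below 0 in osteoblast-like, -0.26 [-0.43, -0.08], synovial lining-like, -0.50 [-0.87, -0.11], and fibroblast-like cells, -0.20 [-0.38, -0.02]. Neither reached 2-fold in the 8 classes as processed here, but Galnt1 was at -1.93 in smooth muscle-like cells thinned to 2000 UMIs. In synovial lining-like cells thinned to 2000 UMIs the Galnt1 log2 ratio turned from -0.50 to 0.35.

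Among the minor members, Galnt16 in fibroblast-like cells had a log2 ratio of 0.74 [0.44, 1.05] and Galnt7 in osteoblast-like cells 0.50 [0.05, 0.95]. Galnt10 in chondrocyte-like cells was at 0.53 [0.11, 0.97], from 6.31 to 9.13 CPM, and in synovial lining-like cells at -1.90 [-3.07, -0.69], from 12 UMIs in 25 untreated cells to 16 UMIs in 94 calcitriol cells. Galnt4 in endothelial-like cells had 29 and 14 UMIs and a log2 ratio of -1.24 [-2.28, -0.28]. The Galnt4 exons overlap Poc1b on the same strand, so the assignment of its UMIs is uncertain. Galnt2 likewise shares exon sequence with Gm20388 on its own strand.

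**Figure D4:**
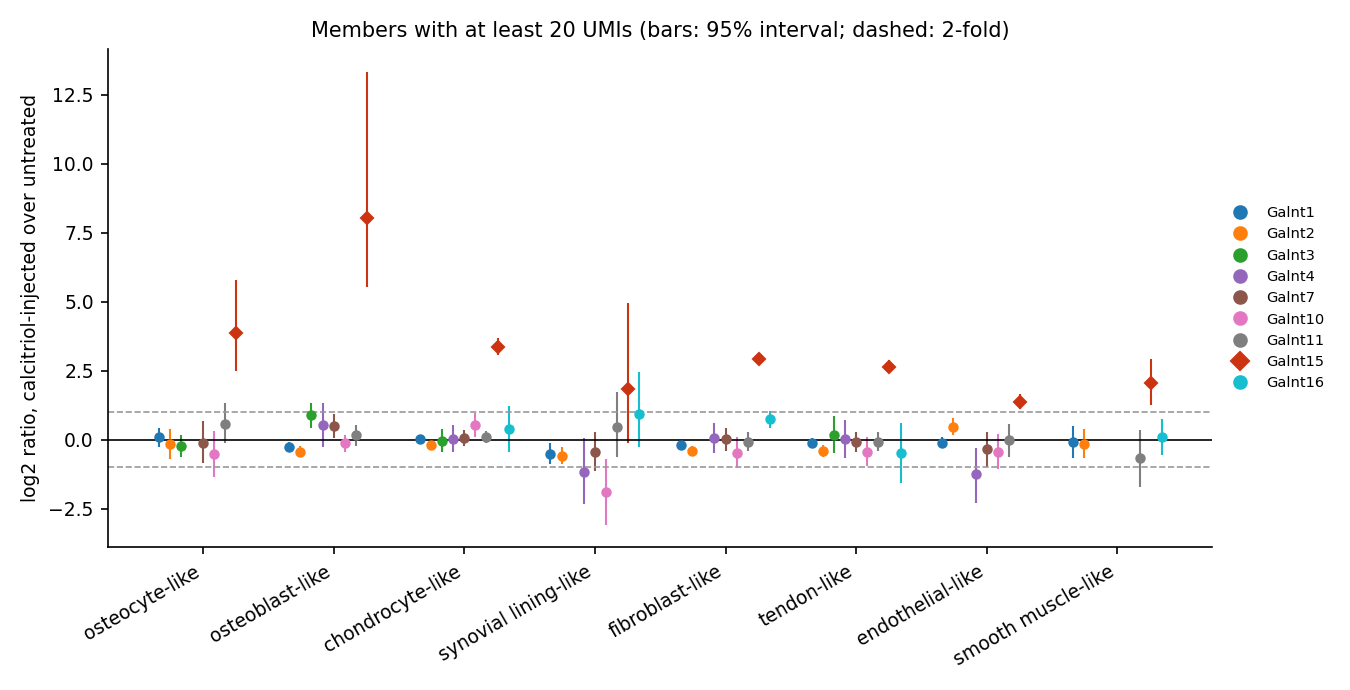
Log2 ratio of CPM, calcitriol-injected over untreated, for members with at least 20 UMIs in a class (points, with 95% counting intervals as bars); dashed lines mark 2-fold. Galnt15 (diamonds) is above the upper line in all 8 classes, from 1.38 in endothelial-like to 8.02 in osteoblast-like cells, and the other members lie between -1.90 and 0.93.

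Galnt3 (ENSMUSG00000026994) lies on the minus strand of chromosome 2, from 66082766 to 66124994 in GRCm38, and is the member that acts on FGF23. It marked the osteocyte-like class, with 94 UMIs and 59.9 CPM [48.4, 73.3] untreated and 154 UMIs and 51.1 CPM with calcitriol. The log2 ratio was -0.23 [-0.61, 0.16]. Galnt3 made up 28.9% of the members' UMIs in untreated osteocyte-like cells, second to Galnt1, and 21.4% with calcitriol. In cells of this class with 2 or 3 of Dmp1, Mepe and Phex it was at 89.5 and 73.4 CPM, and in cells with none of these genes at 26.1 and 39.7 CPM. In the 34 untreated cells with 2 or 3 of these genes Galnt3 was the leading member with 52 UMIs, ahead of Galnt1 with 39, and their intervals overlapped.

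Osteoblast-like cells followed at 9.68 CPM untreated and 17.9 CPM with calcitriol, a log2 ratio of 0.88 [0.43, 1.34]. Over the processing alternatives it ran from 0.44 to 1.29, and it was past 2-fold only as the mean of the cells' own CPM. Most of the UMIs lay in the Bglap-led cluster, with 52 UMIs and 23.4 CPM untreated and 94 UMIs and 40.4 CPM with calcitriol. The Postn-led cluster had 12 and 25 UMIs, at 2.74 and 5.77 CPM, a log2 ratio of 1.08 [0.03, 2.20]. The osteocyte-like cluster and the Bglap-led cluster had separate intervals untreated and overlapping ones with calcitriol.

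Elsewhere Galnt3 was read mainly in a few clusters. It was at 15.4 and 21.1 CPM in the Chil1- and Notum-led chondrocyte-like cells and at 7.50 and 4.08 CPM in the Matn3 cluster. In the Igfbp2- and Sfrp2-led tendon-like cells Galnt3 was at 19.0 and 23.3 CPM. These cells held 30 and 47 of the 33 and 49 tendon-like UMIs. Their cluster had no tendon marker among its 10 leading genes, so its name is less sure than that of the other tendon-like clusters. The Col10a1-led cells seen at the finer clustering had 17.9 and 8.15 CPM. Over all chondrocyte-like cells the 2 libraries gave 7.43 and 7.23 CPM. No Galnt3 UMI was found in smooth muscle-like or synovial lining-like cells, nor in untreated fibroblast-like cells, where 0 UMIs allow up to 0.560 CPM, and calcitriol fibroblast-like cells had 4.

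**Figure D5:**
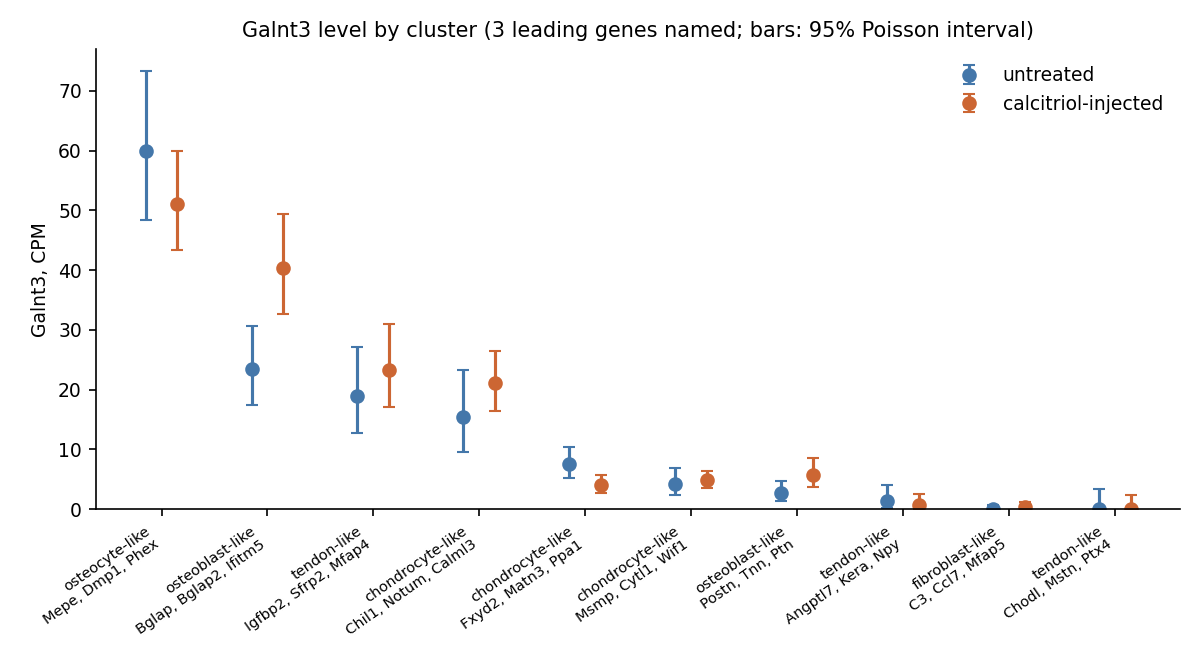
Galnt3 CPM in each osteocyte-, osteoblast-, chondrocyte-, tendon- and fibroblast-like cluster, named by its 3 leading genes, with 95% Poisson intervals. The osteocyte-like cluster is highest at 59.9 and 51.1 CPM, and the Bglap-led osteoblast-like cluster is next at 23.4 and 40.4 CPM.

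Fgf23 itself had no UMI in the untreated library and 541 with calcitriol, of which 467 lay in 8 osteocyte-like cells and 62 in osteoblast-like cells. In osteocyte-like cells it was at least 6.34 higher on the log2 scale. Galnt3 was present in 6 of the 8 osteocyte-like cells, with 12 UMIs and 58.6 CPM [30.3, 102.4], against 50.6 CPM [42.6, 59.6] in the other calcitriol osteocyte-like cells. The cell with the most Fgf23, 158 UMIs, had 1 Galnt3 UMI. Furin, a protease of the FGF23 cleavage site, was at 94.9 CPM untreated and 77.7 CPM with calcitriol in osteocyte-like cells, and Fam20c, the kinase that phosphorylates FGF23 beside that site, at 505.8 and 461.9 CPM. Vdr, the calcitriol receptor, was at 28.0 and 57.7 CPM there, a log2 ratio of 1.04 [0.56, 1.55]. In osteoblast-like cells Vdr was at 26.6 and 74.1 CPM, 1.48 [1.23, 1.73]. The paper describes the other direction, higher Vdr in control cells, for an osteoblast cluster and a chondrocyte cluster of its own. Its clusters were not matched to the classes here, and the reason for the difference was not tested. Cyp24a1, the calcitriol-degrading enzyme, had 0 and 19 UMIs in osteocyte-like cells. Of these 5 genes, 4 had at least 20 UMIs in osteocyte-like and in osteoblast-like cells, and 2 of them, Fgf23 and Vdr, were past 2-fold in each. Of all genes, 7.34% and 5.02% were at least 2-fold higher in these classes. The 5 genes were listed with earlier results of these data known, so the count is a description.

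Of the 9 family genes outside the member list, 4 had at least 20 UMIs in chondrocyte-like cells, where 5.11% of all genes were 2-fold higher and 5.51% lower. Galnt18 was the most abundant of them, with 339 and 511 UMIs at 34.5 CPM untreated and 24.3 CPM with calcitriol, a log2 ratio of -0.51 [-0.71, -0.30]. Galnt17 was at 0.509 and 2.47 CPM, from 5 and 52 UMIs, a log2 ratio of 2.28 [0.97, 3.96]. Galnt5 was at 4.48 and 1.85 CPM, a log2 ratio of -1.27 [-1.93, -0.62], and Galnt12 was at 3.56 and 3.57 CPM. In osteoblast-like cells Galnt5, with 64 and 51 UMIs, and Galnt17, with 11 and 13, had enough UMIs, and in osteocyte-like cells Galnt18 did, with 7 and 16. None of these was past 2-fold in those classes.

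The enzymes that act around the GALNT step were counted from lists, to be read against the 7.34%, 5.02% and 5.11% of all genes 2-fold higher and the 4.48%, 3.55% and 5.51% lower in osteocyte-, osteoblast- and chondrocyte-like cells. With so few genes, a count of 0 lies near these shares. Of the core and branch enzymes, which extend the first sugar, 5 were tested in osteocyte-like, 5 in osteoblast-like and 6 in chondrocyte-like cells. Only Gcnt1, the core 2 branching enzyme, in osteocyte-like cells was past 2-fold, at 33.1 CPM untreated and 13.9 CPM with calcitriol, a log2 ratio of -1.25 [-1.87, -0.63]. Of the sialyltransferases, which cap the chains, none of 5, 6 and 6 was past 2-fold. Among the nucleotide sugar genes, which supply the donors, 2 of 10 were 2-fold lower in osteocyte-like cells, 0 of 11 in osteoblast-like cells and 2 of 11 in chondrocyte-like cells, and those that make and activate sialic acid are given here. Nans, sialic acid synthase, was at 40.1 CPM untreated and 16.1 CPM with calcitriol in chondrocyte-like cells, a log2 ratio of -1.32 [-1.53, -1.11]. Cmas, which activates sialic acid, was at 30.6 and 12.6 CPM in osteocyte-like cells, a log2 ratio of -1.28 [-1.93, -0.63]. No gene of these 3 lists was 2-fold higher in the 3 classes.

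The genes whose levels most resembled Galnt15 and Galnt3 were ranked by Pearson's r of log2(CPM + 10) over 18 profiles, 9 classes in each of 2 libraries, among 11836 genes. These profiles share their library and depth, and r is a description. For Galnt15 they were Tfap4 (0.875), a transcription factor, Stard5 (0.871), a lipid-transfer protein, and Fkbp5 (0.853), a co-chaperone of steroid receptors. Tfap4 ran only from 0 to 7.44 CPM and Stard5 from 0 to 13.5 CPM, near or below the 10 CPM added before the logarithm. Fkbp5 was at 73.4 CPM untreated and 124.0 CPM with calcitriol in fibroblast-like cells and at 55.7 and 165.6 CPM in endothelial-like cells. For Galnt3 they were Irx5 (0.973), a homeobox factor that was also used to name the osteocyte-like class, Syt12 (0.961), a synaptotagmin, and Col24a1 (0.961), a fibrillar collagen. Irx5 was at 247.2 CPM in untreated and 267.5 CPM in calcitriol osteocyte-like cells.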

How the data were processed

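The authors mapped the 10x 3′ reads to mm10 with Cell Ranger 4.0.0, and the deposited values are raw UMI counts per gene and barcode. Submitters' notes also name Seurat 3.2.2. Exon overlaps came from GENCODE M21. All choices of members, lists and named genes were made with earlier results of these data known. Here barcodes with at least 200 genes were clustered per library (Seurat 5.3.0, R 4.3.3, 2000 variable genes), clusters past all 3 limits (median mitochondrial share above 10%, under 1000 genes, under 2000 UMIs) were left out, and the rest was integrated and clustered (30 components, resolution 0.8) into 24 clusters. Only 1 family gene was among the variable genes. A cluster was named for the class with at least 2 markers among its top 10 genes, or else with the most, at least 3, counted markers; this rule was set after the clusters were seen, and names may differ from the study's. Doublets were marked by likeness to simulated pairs (172 untreated and 123 calcitriol cells), kept, and left out in an alternative. UMIs were summed per class and library; intervals are exact Poisson, Clopper-Pearson or conditional binomial at 95% and cover counting error only, and 3 counts stand for a count of 0. Genes with at least 20 UMIs over both libraries entered ratios. With 1 library per group no test was run. Named genes were all members, genes of the fixed lists past 2-fold in osteocyte-, osteoblast- or chondrocyte-like cells, and the 3 most similar profiles; others were chosen after their values were seen. One list symbol with 2 identifiers was not used, and 1 list gene past 2-fold is not reported here. Interval code was tested on simulated counts. Python 3.11.15, numpy 2.4.6 and scipy 1.17.1 were used.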

Additional observations from a re-analysis of the deposited data

Results flagged for a closer look

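These results stood out by comparison between classes or in barcodes outside the classes, and none was tested. Galnt2 had a log2 ratio of 0.48 [0.18, 0.79] in endothelial-like cells and of -0.58 [-0.88, -0.26] in synovial lining-like cells, with intervals on opposite sides of 0. Galnt10 had a log2 ratio of 0.53 [0.11, 0.97] in chondrocyte-like cells and of -1.90 [-3.07, -0.69] in synovial lining-like cells, where 25 untreated cells gave 12 UMIs. The difference between these classes was not tested, and the median of all genes was -0.29 in the synovial lining-like class. In barcodes with under 200 genes, which entered no class, Galnt15 was at 2.74 CPM [1.25, 5.21] in the calcitriol library from 9 UMIs and at 0.0853 CPM in the untreated library from 1 UMI.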

How the results depend on the processing

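Counting error is the only error that could be measured, since each group was 1 library of pooled mice. No paired analysis was possible because each group had 1 library. Classes with few untreated cells, smooth muscle-like and synovial lining-like, and genes near 0 UMIs limit what could be detected. Over the alternatives, the Galnt15 log2 ratio kept within 1 counting interval in 81 of 94 values and the Galnt3 ratio in 46 of 48. Galnt15 ranged from 2.75 to 3.05 in fibroblast-like, from 2.46 to 2.72 in tendon-like and from 1.199 to 1.41 in endothelial-like cells. The causes of the shifts below were not tested.

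The smooth muscle-like Galnt15 ratio, 2.04, was 3.36 at resolutions 0.5 and 1.2, 3.55 with 20 components, 3.59 without integration, 3.53 with clusters past any limit left out, 3.36 with the family out of the variable genes and 3.10 in cells taken by their own marker UMIs. The osteocyte-like ratio, 3.88, was 1.18 in cells thinned to 2000 UMIs, where 2 untreated UMIs were left. It was at least 1.26 in cells with 2 or 3 of Dmp1, Mepe and Phex (an alternative chosen after seeing the data) and had a bound of -0.21 at resolution 1.2. The osteoblast-like ratio, 8.02, was 4.23 without integration and at least 3.41 thinned, and the chondrocyte-like ratio, 3.37, was 4.01 thinned. Without integration the osteoblast-like class held 477 and 461 cells instead of 350 and 332. The tendon-like class then held 254 and 328 instead of 376 and 484, so these ratios cover other cells. The Galnt3 ratio was -0.88 in tendon-like cells without integration, against 0.19, and 1.21 in thinned chondrocyte-like cells, against -0.04.

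The summed ratio of the other 9 members, thinned, was -0.34 in osteoblast-like, -0.37 in tendon-like and -0.51 in smooth muscle-like cells, and it turned to 0.022 in fibroblast-like and 0.29 in erythroid-like cells. As the mean of the cells' own CPM it was -0.37 in tendon-like and 0.20 in endothelial-like cells, and it turned to 0.14 in erythroid-like cells. Without haemoglobin and mitochondrial UMIs in the totals it turned to 0.29 in erythroid-like cells. Galnt1 turned to 0.35 in thinned synovial lining-like cells, and in erythroid-like cells to 0.21 thinned, 0.034 by the mean of cells and 0.24 without haemoglobin and mitochondrial UMIs.

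The leading member was another one in 8 of 214 values. Galnt3 led in untreated osteocyte-like cells at resolution 1.2 and with 2 or 3 markers, Galnt2 in calcitriol smooth muscle-like cells without doublets and by own markers, and Galnt15 in calcitriol chondrocyte- and endothelial-like cells when thinned and by the mean of cells. The Galnt1 share of member UMIs in osteocyte-like cells was 40.5% untreated and 37.2% with calcitriol thinned, and with calcitriol 38.4% at resolution 1.2 and 35.7% with 2 or 3 markers. In osteoblast-like cells it was 41.98% and 32.1% without integration and 24% with calcitriol thinned. In chondrocyte-like cells it was 47.7% and 30.5% thinned and 29.4% with calcitriol by the mean of cells. In untreated tendon-like cells it was 29.2% without integration, 34.98% thinned and 30.3% by own markers. In endothelial-like cells it was 42.02% and 29.5% thinned and 38.0% untreated by the mean of cells. In erythroid-like cells it was 70.4% and 56.1% with clusters past any limit left out and 71.1% and 53.9% by own markers. The Galnt2 share in thinned untreated fibroblast-like cells was 28.2%. The calcitriol Galnt15 share in fibroblast-like cells was 65.0% thinned, 66.6% by the mean of cells and 58.4% by own markers, and in tendon-like cells 55.8% without integration, 55.8% thinned, 53.8% by the mean of cells and 38.8% by own markers. Own markers gave too few untreated osteocyte-like and synovial lining-like cells for a value.

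With at least 50 UMIs, genes at least 2-fold higher and lower numbered 310 and 183 in osteocyte-like, 336 and 256 in osteoblast-like, 395 and 489 in chondrocyte-like, 198 and 357 in synovial lining-like, 297 and 316 in fibroblast-like, 292 and 401 in tendon-like, 161 and 210 in endothelial-like and 152 and 164 in smooth muscle-like cells. The main counts were 663 and 405, 585 and 414, 684 and 737, 478 and 803, 532 and 491, 534 and 624, 351 and 454, and 451 and 397. With 1 UMI in each library as the only limit they were 1358 and 1060, 1191 and 1086, 1205 and 2049, 2019 lower in synovial lining-like cells, then 986 and 1123, 1186 and 1273, 882 and 1200, and 1334 and 1232.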

Other observations

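Among the 9 family genes outside the member list, Galnt18 was the most abundant in endothelial-like cells. It was at 90.7 CPM untreated and 122.1 CPM with calcitriol there, a log2 ratio of 0.43 [0.19, 0.67]. It was lower with calcitriol in fibroblast-like cells, at 19.6 and 7.24 CPM and a log2 ratio of -1.44 [-1.91, -0.97], and in tendon-like cells, at 33.3 and 16.9 CPM and -0.97 [-1.34, -0.61]. Galnt17 was at 29.1 and 38.4 CPM in fibroblast-like cells, 0.40 [0.12, 0.68], and at 9.72 and 17.1 CPM in tendon-like cells, 0.82 [0.31, 1.34]. Galnt5 was at 6.41 and 1.74 CPM in tendon-like cells, from 31 and 11 UMIs, and Galnt12 at 2.80 and 0.679 CPM in fibroblast-like cells, from 15 and 6 UMIs. The difference of Galnt18 between endothelial- and fibroblast-like cells was not tested, and each value compares 1 library with 1 other.

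Cmas, which activates sialic acid, was also lower with calcitriol in fibroblast- and tendon-like cells, just past 2-fold. It was at 31.4 and 15.5 CPM in fibroblast-like cells, a log2 ratio of -1.02 [-1.35, -0.68], and at 33.5 and 16.6 CPM in tendon-like cells, -1.01 [-1.38, -0.65]. Of 11 nucleotide sugar genes tested, 1 was at least 2-fold lower in fibroblast-like and 4 in tendon-like cells. Of all genes, 4.16% and 5.42% were at least 2-fold lower in these 2 classes. In synovial lining-like cells 2 of 11 were 2-fold lower, against 10.1% of all genes. In smooth muscle-like cells 1 of 8 was 2-fold higher, against 6.33% of all genes. No nucleotide sugar gene, Cmas included, was past 2-fold in osteoblast- or endothelial-like cells. In erythroid-like cells, where the median of all genes was -0.83, Cmas was at 357.4 and 370.5 CPM and Nans at 21.4 and 5.37 CPM.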
